A study of Mus musculus with 6 samples.

Results

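The nuclear pore and the carriers that move through it were followed at the level of ribosome footprints and mRNA in mouse embryonic stem cells that lack Mettl5. Genes were taken by symbol: names beginning with Nup, Ipo, Xpo or Tnpo and a number, the names Xpot, Kpna and Kpnb, and Tpr, Ranbp2, Ran, Cse1l, Nxf1 and Pom121. This gave 47 genes of the 9093 in the table, which are 23 nucleoporins, 22 import and export receptors, Ran and Nxf1. Names of the same families that the table does not hold were not analysed here.

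Nuclear pores are ring-shaped channels through the nuclear envelope, built of many copies of the nucleoporins. Small molecules diffuse through them, whereas larger proteins and RNAs are carried by receptors of the importin and exportin family. The small GTPase Ran gives the traffic its direction: in its GTP-bound form in the nucleus it releases cargo from importins and loads cargo onto exportins. Bulk mRNA leaves by another route, with Nxf1 as its receptor. In embryonic stem cells the pore is also known as a platform for chromatin, and some nucleoporins, Nup210 among them, are known for roles in differentiation.

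The KO cells carry a Mettl5 knockout made with CRISPR/Cas9, and the WT cells are wild type. Mettl5 methylates 18S ribosomal RNA, leaving the mark m6A. Both genotypes share the strain background, 129Sv females crossed to C57BL/6 BVSC males, and both grew in serum-free medium with PD0325901 at 1 µM, an inhibitor of MEK, CHIR99021 at 3 µM, an inhibitor of GSK3, and the cytokine LIF at 1000 U per ml. Whether the knockout cells are 1 clone or several is not given in the sources used here. Ribosome footprints, the mRNA fragments that ribosomes protect from nuclease, were sequenced in 2 KO and 2 WT libraries after cycloheximide, which halts elongating ribosomes. Input mRNA was sequenced in 1 KO and 1 WT library. No label says that libraries of a genotype came from different cultures. The p-values therefore rest on the spread between libraries alone, and that spread may be technical.

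The footprint libraries held 2060010 and 3472613 reads in KO cells and 3524739 and 8675267 reads in WT cells. Input was deposited as CPM only. Its totals are estimates, 15931259 reads in KO cells and 17912908 in WT cells, which hold only if the lowest value in each library stands for 1 read. The median member had 329 and 566 footprint reads in the KO libraries and 544 and 1384 in the WT libraries, against 85 to 367 for the median gene of the table. Levels are given as read counts scaled to the library total (CPM). Mettl5 itself had 9.71 and 11.2 footprint CPM in KO cells and 123 and 127 CPM in WT cells. All 12 pluripotency markers looked for were present, and together they had 5971 CPM in each KO library and 5428 and 5427 CPM in the WT libraries. In footprints 7 of them rose and 2 fell, Sall4 (-0.32) and Tfcp2l1 (-0.18), and the others did not pass. Among the risers, Nanog and Dppa3 lie on chromosome 6 and Klf2 and Zfp42 on chromosome 8, whose genes were shifted up as a whole, as described below. Markers of other cells differed as well: the 5 of 11 endoderm markers in the table summed to 1836 and 1894 CPM in KO cells and 3220 and 3222 CPM in WT cells, and the 5 of 9 formative epiblast markers to 136 and 145 CPM in KO cells and 247 and 254 CPM in WT cells. All 5 endoderm markers fell, and these were Lama1, Lamb1, Col4a1, Col4a2 and Sparc. Of the formative markers 4 fell, and Dnmt3a did not pass (-0.16). Of the 4 of 12 fibroblast markers in the table, 3 fell and 1 rose, with a median log2 footprint change of -1.81. Col1a1 had 7.28 and 5.18 CPM in KO cells and 293 and 299.9 CPM in WT cells, and Col5a1 (-1.99) and Fbln2 (-1.62) fell as well. The equal sums of this list, 3105 and 3123 CPM in KO cells and 3130 and 3127 CPM in WT cells, were carried by Fn1, which rose by 0.18 and had 3074 and 3101 CPM in KO cells and 2765 and 2755 CPM in WT cells. Both neural markers of 4 in the table, Nes (0.83) and Tubb3 (0.21), rose, with sums of 330 and 319 CPM in KO cells and 241 and 245 CPM in WT cells. Tubb3 lies on chromosome 8 and was at -0.18 against the median of that chromosome. The 1 mesoderm marker of 4, Eomes, did not pass (-0.06). The markers left over from each list were not in the table, and the part of these cell-state differences in the results was not tested. In bulk samples, fewer cells of a type and less RNA per cell cannot be told apart.

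The first comparison asked which pore and transport genes carried more or fewer footprints in KO cells. Of the 47 members, 12 rose, 13 fell and 22 did not pass the test (edgeR's quasi-likelihood test, adjusted p under 0.05 over all genes). Over all genes, 34.4% passed it, 18.3% as higher and 16% as lower. Members had more reads than the median gene, as given above, so these shares are not at like depth. Among the 4073 genes with at least 100 counts in every library, 1155 were higher and 869 lower. At that floor 11 members were higher and 11 lower. Nup62cl, Nup35, Xpo6, Ipo13, Pom121 and Nup37 lay below the floor and were not tested there. The changes were small. Only Nup62cl passed 1.5-fold, and the members' median log2 change was -0.04, against -0.0003 for all genes. Their summed footprints were 10790 and 10754 CPM in KO cells and 11343 and 11358 CPM in WT cells.

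**Figure D1:**
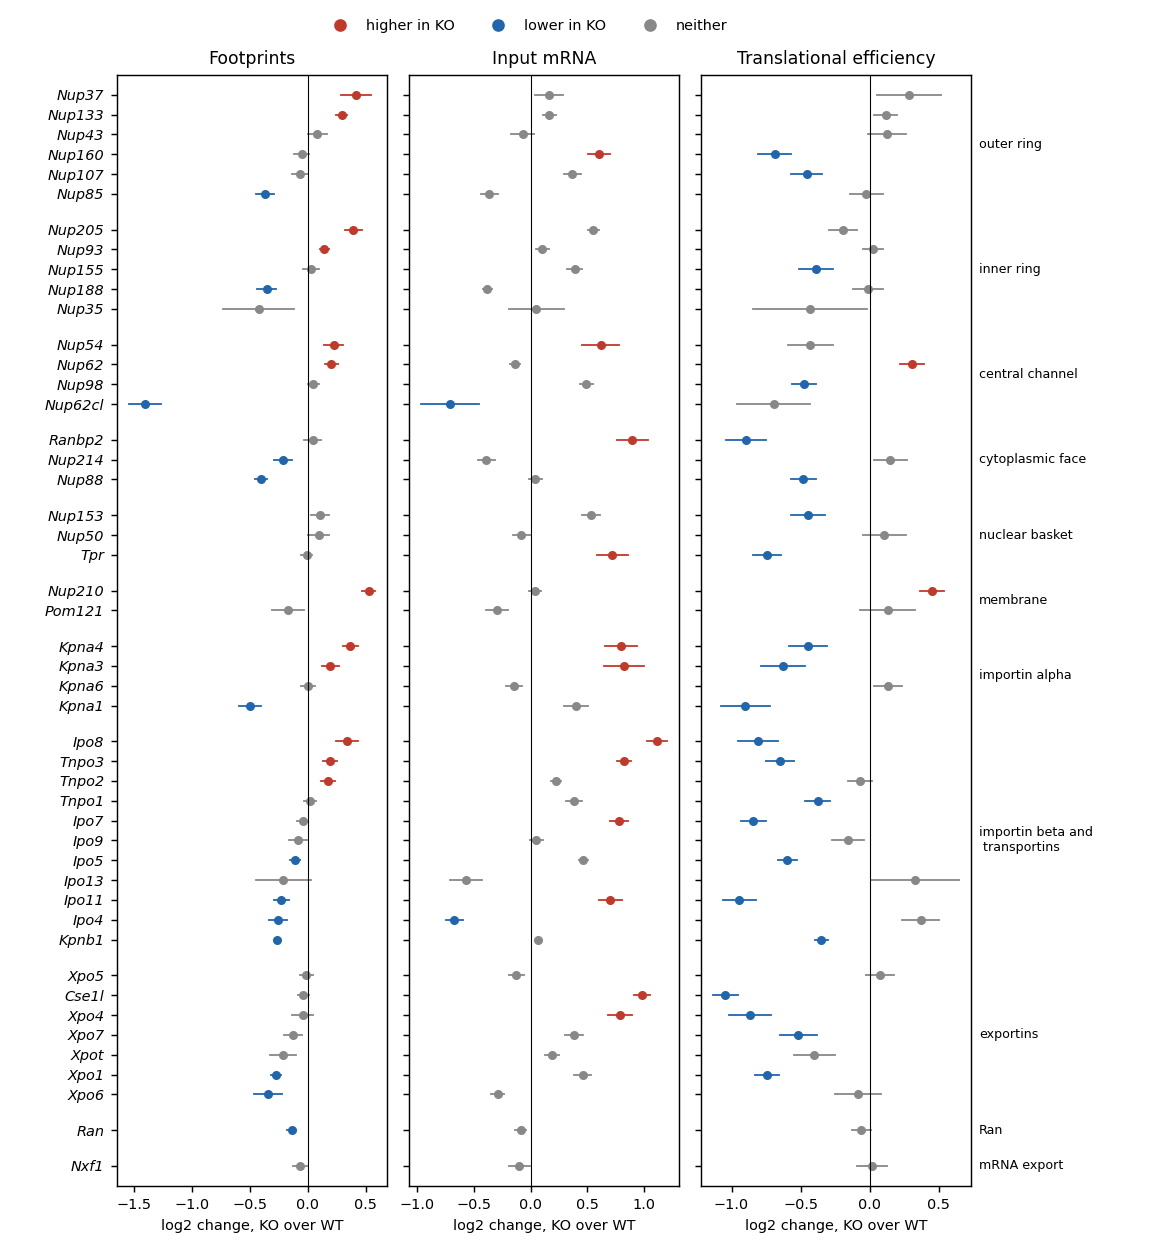
Log2 change, KO over WT, of footprints, input mRNA and translational efficiency for the 47 members, grouped by role. Bars are 1 standard error for footprints and translational efficiency and the 95% counting interval for input; colour marks members past the test, or past 1.5-fold for input. Most input values of the receptors lie right of 0 and most of their translational efficiency values left of 0.

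Among the ring nucleoporins, which build the scaffold of the pore, the changes ran both ways. In the outer ring, Nup37 and Nup133 rose and Nup85 fell, while Nup43, Nup107 and Nup160 did not pass. Nup133 had 355 and 348 CPM in KO cells and 284 and 295 CPM in WT cells, a log2 change of 0.29 ± 0.05 (standard error, adjusted p = 7.92e-08). Nup85 had 115 and 119 CPM in KO cells, below its 151 and 155 CPM in WT cells, a change of -0.37 ± 0.08 (adjusted p = 8.55e-06). These are subunits of the same Y-shaped complex. Nup133 lies on chromosome 8 and Nup85 on chromosome 11, whose genes were shifted as a whole, as described below. Set against the medians of these chromosomes, the changes were -0.10 for Nup133 and -0.18 for Nup85. Nup37 had 48.1 and 52.4 CPM in KO cells and 31.8 and 42.1 CPM in WT cells, a change of 0.42 ± 0.13 (adjusted p = 0.00556) with a wide gap between the WT libraries.

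In the inner ring, which joins the scaffold to the membrane, Nup205 and Nup93 rose and Nup188 fell. Nup205 had 159 and 163 CPM in KO cells and 127 and 123 CPM in WT cells, a change of 0.39 ± 0.07 (adjusted p = 6.19e-07). Nup188, a relative of Nup205 in the same ring, had 96.1 and 99.1 CPM in KO cells and 134 and 123 CPM in WT cells, a change of -0.35 ± 0.08 (adjusted p = 1.35e-04). Nup205 lies on chromosome 6, whose genes were shifted up as a whole, and was at 0.08 against the median of that chromosome. Nup155 (0.03 ± 0.07) and Nup35 (-0.42 ± 0.31) did not pass, and Nup35 had the fewest reads of all members, 13 and 16 in the KO libraries and 28 and 59 in the WT libraries.

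The largest fall and the largest rise were both in nucleoporins. Nup62cl, a relative of the channel protein Nup62 on the X chromosome (chrX:140006802-140062707, mm10), had 23.8 and 25.6 CPM in KO cells and 67.2 and 66.9 CPM in WT cells, a change of -1.40 ± 0.14 (adjusted p = 5.09e-23). Nup210, a membrane protein that rings the pore, lies on chromosome 6 (chr6:91013067-91118322). It had 317 CPM in each KO library and 233 and 218 CPM in WT cells, a change of 0.53 ± 0.05 (adjusted p = 8.45e-21). Pom121, the other membrane nucleoporin among the members, did not pass (-0.17 ± 0.14). Of the channel proteins that form its permeability barrier, Nup62 (0.20 ± 0.06) and Nup54 (0.23 ± 0.08) rose, and Nup98 did not pass (0.05 ± 0.05).

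On the cytoplasmic face, where export complexes are taken apart, Nup88 and Nup214 fell. Nup88 had 240 and 246 CPM in KO cells and 341 and 319 CPM in WT cells, a change of -0.40 ± 0.05 (adjusted p = 1.06e-12). For its partner Nup214 the change was -0.22 ± 0.08. Ranbp2, the large Ran-binding protein of the cytoplasmic filaments, did not pass (0.04 ± 0.07), nor did the 3 proteins of the nuclear basket, Nup153, Nup50 and Tpr.

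Import receptors moved in both directions. Of the importin alpha genes, whose products recognise nuclear localisation signals, Kpna4 and Kpna3 rose, Kpna1 fell and Kpna6 did not pass. Kpna4 had 219 and 196 CPM in KO cells and 166 and 160 CPM in WT cells, a change of 0.37 ± 0.06 (adjusted p = 1.39e-07). Kpna3 had 164 and 144 CPM in KO cells and 132 and 136 CPM in WT cells, a change of 0.20 ± 0.07 (adjusted p = 0.0234). Kpna1 had 72.8 and 58.2 CPM in KO cells, against 95.3 and 89.6 CPM in WT cells, a change of -0.50 ± 0.10 (adjusted p = 5.06e-06). Kpna6 had 201 and 207 CPM in KO cells and 201 and 212 CPM in WT cells. The 4 importin alpha genes thus lay on both sides of 0 in footprints.

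Of the 11 importin beta and transportin genes, 3 rose (Ipo8, Tnpo2 and Tnpo3), 4 fell (Kpnb1, Ipo4, Ipo5 and Ipo11) and 4 did not pass. Kpnb1, importin beta itself, is the partner that carries importin alpha and its cargo through the pore. It had 1691 and 1703 CPM in KO cells and 2021 and 2110 CPM in WT cells, a change of -0.26 ± 0.03 (adjusted p = 4.69e-17). Ipo8 had 99.5 and 96.2 CPM in KO cells and 82.0 and 76.2 CPM in WT cells, a change of 0.34 ± 0.09 (adjusted p = 0.00115). Kpnb1 lies on chromosome 11 and Ipo8 on chromosome 6, and both changes were smaller against the chromosome median, as described below.

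Of the 7 exportins, Xpo1 and Xpo6 fell and 5 did not pass. Xpo1, also called Crm1, exports proteins with a leucine-rich export signal. It had 423 and 397 CPM in KO cells and 495 and 504 CPM in WT cells, a change of -0.27 ± 0.04 (adjusted p = 1.39e-08). Xpo6, the exportin of actin and profilin, had 47.1 and 43.2 CPM in KO cells and 63.8 and 54.3 CPM in WT cells, a change of -0.34 ± 0.12 (adjusted p = 0.0172). Cse1l, which returns importin alpha to the cytoplasm, had 388 and 372 CPM in KO cells and 412 and 384 CPM in WT cells, and the libraries overlapped. Ran fell slightly, with 659 and 632 CPM in KO cells and 705 and 729 CPM in WT cells, a change of -0.14 ± 0.04 (adjusted p = 0.00182). Nxf1 did not pass (-0.07 ± 0.06).

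**Figure D2:**
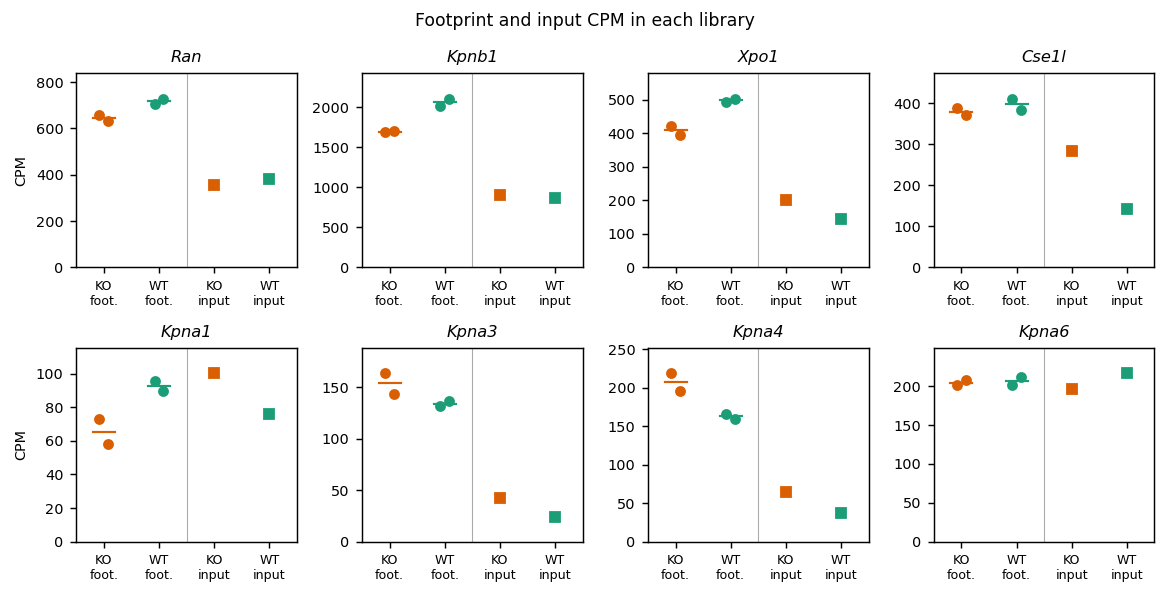
Footprint CPM (circles, with the mean as a line) and input CPM (squares) in each library for Ran, Kpnb1, Xpo1, Cse1l and the 4 importin alpha genes, KO in orange and WT in green. Footprints of Xpo1 are lower and its input higher in KO cells, and input of Cse1l is 284 CPM in the KO library and 143 CPM in the WT library.

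Of the 25 footprint calls, 10 held in all 11 alternative tests that could fit them, none of which removes the chromosome shift described next: Nup62cl, Nup85, Nup88, Nup133, Nup188, Nup205, Nup210, Kpna4, Kpnb1 and Xpo1. DESeq2 lost 14 of the other calls (adjusted p = 0.0794 to 0.279), all but that of Kpna1. Without KO replicate 1 the calls of Ipo4, Ipo5, Kpna3, Nup214, Nup54, Tnpo2 and Tnpo3 were lost (adjusted p = 0.0556 to 0.314). Without KO replicate 2 those of Ipo5, Kpna1, Nup214, Nup37, Nup54, Nup62, Ran, Tnpo2 and Xpo6 were lost (0.0514 to 0.258), which for Kpna1 gave an adjusted p of 0.0748. Leaving out WT replicate 1 ended those of Ipo5, Kpna3, Nup37 and Xpo6 (0.069 to 0.156), and leaving out WT replicate 2 those of Ipo11, Ipo5, Ipo8, Kpna3, Nup214, Nup54, Nup62, Ran, Tnpo2 and Tnpo3 (0.0557 to 0.344). Nup93 was lost with DESeq2 alone.

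Footprint changes moved with the chromosome on which the gene lies. All genes of chromosomes 6 and 8 had median log2 footprint changes of 0.31 and 0.39, and those of chromosomes 11 and 16 had medians of -0.19 and -0.25. All 12 members on these 4 chromosomes passed the test: the 4 on chromosome 6 (Ipo8, Nup205, Nup210 and Tnpo3) and the 3 on chromosome 8 (Nup133, Nup93 and Tnpo2) as higher, and the 4 on chromosome 11 (Kpnb1, Nup85, Nup88 and Xpo1) and Kpna1 on chromosome 16 as lower. Of all genes on these chromosomes, 30.1% were higher and 21.8% lower. These shares pool the chromosomes shifted up with those shifted down, so they are not the rates to set beside the members of either pair. Shares for each pair alone are not given here. Of the 35 members elsewhere, 5 rose and 8 fell, against 15% and 14.4% of the 7098 other genes. Set against the median of their own chromosomes, values for which there is no test, all changes on chromosomes 6, 11 and 16 were smaller. Nup210 was at 0.21, Nup205 at 0.08 and Ipo8 at 0.03, and Tnpo3 turned to -0.12. Nup88 was at -0.22, Nup85 at -0.18, Xpo1 at -0.09, Kpnb1 at -0.08 and Kpna1 at -0.25. The members on chromosome 8 turned negative, Nup133 to -0.10, Tnpo2 to -0.21 and Nup93 to -0.25. The cause of the shift of whole chromosomes was not tested.

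Input mRNA was measured in 1 library of each genotype, so its differences could not be tested. Of the 22 receptors, 8 were past 1.5-fold higher in the KO library and 1 lower, and Ipo4, Ipo13, Xpo6, Kpna6 and Xpo5 had less input in the KO library. Of all members, 32 had more input in the KO library than in the WT library and 15 had less. Past 1.5-fold, 12 were higher and 2 lower, beside 15.1% and 6.17% of all genes (21.2% in either direction). The median log2 ratio, on the scale of log2(CPM + 1), was 0.39 for the 22 receptors and 0.10 for the 23 nucleoporins, beside 0.05 for all genes. Ipo8 stood highest with 183 CPM in the KO input and 84.4 CPM in the WT input, a log2 ratio of 1.11 (95% counting interval 1.02 to 1.2). Cse1l was next with 284 CPM in the KO input and 143 CPM in the WT input (0.98, interval 0.91 to 1.05). Nup62cl (-0.71) and Ipo4 (-0.67) were the members lower by over 1.5-fold. The intervals rest on the same estimate of the totals and cover counting error only, since copied reads are not independent molecules and 1 library holds no spread.

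**Figure D3:**
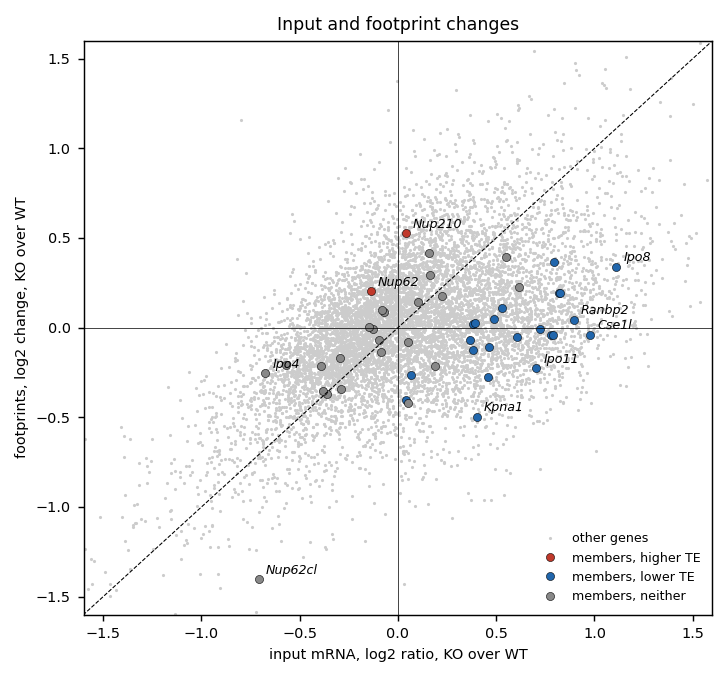
Log2 footprint change against log2 input ratio, KO over WT, with members as large points coloured by the translational efficiency test and all other genes in grey; genes beyond 1.6 on either axis are not drawn, and the dashed line marks equal change. The 22 members with lower translational efficiency all lie right of 0, with input ratios of 0.04 to 1.11.

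The second comparison asked whether ribosome loading per mRNA differed. Translational efficiency (TE) is footprint CPM over input CPM of the same gene, and its change was tested with limma on log2(CPM + 1), as the footprint difference less the input difference. Of the 47 members, 22 had lower TE in KO cells, 2 had higher TE and 23 did not pass, beside 12.8% lower and 4.88% higher among all genes (17.7% in either direction). Members had more reads than the median gene, so these shares are not at like depth. Among the 6010 genes with means of at least 20 CPM in footprints and in input, 489 were higher and 1098 lower. At that floor 3 members were higher and 23 lower. The members' median log2 TE change was -0.39, against -0.03 for all genes. Both footprint libraries of a genotype share 1 input library, so the test holds no spread of the input. With a spread of 0.2 (log2 standard deviation) added for each input library, 0 of the 47 passed (limma, lowest adjusted p = 0.278), and at an unadjusted p under 0.05 there were 11 lower and 0 higher. The p-values in the authors' deposited table, after Benjamini-Hochberg adjustment, left Ipo5, Ipo7 and Nup153 as lower and none as higher, and unadjusted they put 25 members lower and 3 higher at 0.05. Leaving out WT replicate 2 ended the calls of Nup155 and Nup62 (adjusted p = 0.0584 to 0.0986), and leaving out WT replicate 1 that of Kpna4 (0.107). Centring each library on its median ended the lower calls of Kpna4, Nup153 and Nup155 (adjusted p = 0.053 to 0.105) and left 3 members higher and 19 lower. Ipo4 (0.37, adjusted p = 0.0564) and Xpot (-0.40, adjusted p = 0.0629) lay just outside the threshold and passed it in some settings. Nup62cl (-0.70, adjusted p = 0.075) passed it with a pseudocount of 5 CPM.

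TE fell in 14 of the 22 receptors, and the other 8 did not pass. It fell in 8 of the 23 nucleoporins and rose in 2. The median change was -0.48 for the receptors and -0.19 for the nucleoporins, a difference that was not tested. Of the exportins, Cse1l, Xpo1, Xpo4 and Xpo7 fell. Of the importin beta family, Kpnb1, Ipo5, Ipo7, Ipo8, Ipo11, Tnpo1 and Tnpo3 fell, and of the importin alpha genes Kpna1, Kpna3 and Kpna4 did. Among nucleoporins the falls were Nup107 and Nup160 of the outer ring, Nup155 of the inner ring, Nup98 of the channel, Nup88 and Ranbp2 of the cytoplasmic face, and Nup153 and Tpr of the basket. The rises were Nup62 and Nup210.

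Cse1l had the largest fall in TE, with 1.34 ± 0.04 in KO cells and 2.78 ± 0.14 in WT cells (SD, n = 2 each), a log2 change of -1.04 ± 0.09 (standard error, limma adjusted p = 1.76e-08). Its footprints did not pass the test while its input was higher in the KO library. Ipo11, the import receptor of several ubiquitin-conjugating enzymes, had a TE of 1.65 ± 0.04 in KO cells and 3.19 ± 0.14 in WT cells, a change of -0.94 ± 0.12 (adjusted p = 4.20e-06). Its footprints were 183 and 190 CPM in KO cells and 214 and 228 CPM in WT cells, and its input 113 CPM in the KO library and 69.1 CPM in the WT library. Ipo11 was therefore lower in footprints and higher in input.

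Kpna1 had a TE of 0.65 ± 0.10 in KO cells and 1.22 ± 0.05 in WT cells, a change of -0.90 ± 0.18 (adjusted p = 9.22e-04). Ranbp2 had 1.86 ± 0.03 in KO cells and 3.51 ± 0.24 in WT cells, a change of -0.90 ± 0.14 (adjusted p = 9.96e-05). The footprints of Ranbp2 were 137 and 140 CPM in KO cells and 146 and 132 CPM in WT cells, overlapping, with 74.3 CPM in the KO input and 39.5 CPM in the WT input. Xpo4 had footprints of 90.3 and 91.0 CPM in KO cells and 99.0 and 92.7 CPM in WT cells, with 112 CPM in the KO input and 64.5 CPM in the WT input, and a TE change of -0.87 ± 0.15 (adjusted p = 2.10e-04). Ipo7, which imports ribosomal proteins among other cargo, had 345 and 352 footprint CPM in KO cells and 361 and 368 CPM in WT cells, with 185 CPM in the KO input and 108 CPM in the WT input. Its TE changed by -0.84 ± 0.09 (adjusted p = 5.32e-07). In all of these the lower TE came with higher input in the KO library.

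The same held in each of the 22 members with lower TE, which had a median log2 input ratio of 0.57. The share of all genes with lower TE that had more KO input is not given here. Nup62cl, whose TE change did not pass (-0.70, limma adjusted p = 0.075), had less input in the KO library (-0.71). Of the 22, 12 had no footprint call, 6 had lower footprints (Ipo5, Ipo11, Kpna1, Kpnb1, Nup88 and Xpo1) and 4 had higher footprints (Ipo8, Kpna3, Kpna4 and Tnpo3). The 1165 genes of the whole table with lower TE were split in a similar way. Of these, 659 had no footprint call, 308 had lower footprints and 198 had higher footprints. Lower TE with no footprint call was found in 7.25% of all genes. Because input is the denominator of TE, the input ratio and the TE change share their values and are not independent.

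The 2 members with higher TE were both nucleoporins with higher footprints. Nup210 had a TE of 0.844 in KO cells and 0.617 ± 0.030 in WT cells, a change of 0.45 ± 0.09 (adjusted p = 8.12e-04). Its input was 375 CPM in the KO library and 365 CPM in the WT library. Nup62 had footprints of 256 and 265 CPM in KO cells and 236 and 228 CPM in WT cells, with 466 CPM in the KO input and 513 CPM in the WT input, and its TE changed by 0.31 ± 0.09 (adjusted p = 0.0142). RefSeq places Atf5 and Il4i1b over the Nup62 locus (chr7:44816088-44831836). Of all members, 11 overlap another coding gene, and the sources used here do not state whether the counting used strand.

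The level of TE differed far more between members than between genotypes. As a ratio of values of the same gene it can be set side by side between genes, although input also covers untranslated regions. Tpr, the coiled-coil protein of the nuclear basket, stood highest with 5.86 in KO cells and 9.91 in WT cells. Kpna3 followed with 3.63 in KO cells and 5.69 in WT cells, then Kpna4 with 3.19 in KO cells and 4.38 in WT cells. Nup188 had 0.186 in KO cells and 0.188 in WT cells, and Xpo6 0.191 in KO cells and 0.204 in WT cells, and for both genes the KO and WT libraries overlapped. The members' median TE was 0.844 in KO cells and 1.04 in WT cells, against 0.854 in KO cells and 0.890 in WT cells for all genes. A TE above 2 was reached by 6 members in KO cells and by 12 in WT cells, beside 13.6% of all genes in KO cells and 18.2% in WT cells. The inner ring had medians of 0.331 in KO cells and 0.463 in WT cells, but its Nup93 had 1.98 in KO cells and 1.95 in WT cells. The importin alpha genes had medians of 2.12 in KO cells and 2.80 in WT cells. These lie between Kpna3 and Kpna4 above and 2 lower genes, Kpna1 (0.65 in KO cells, 1.22 in WT cells) and Kpna6 (1.04 in KO cells, 0.95 in WT cells).

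**Figure D4:**
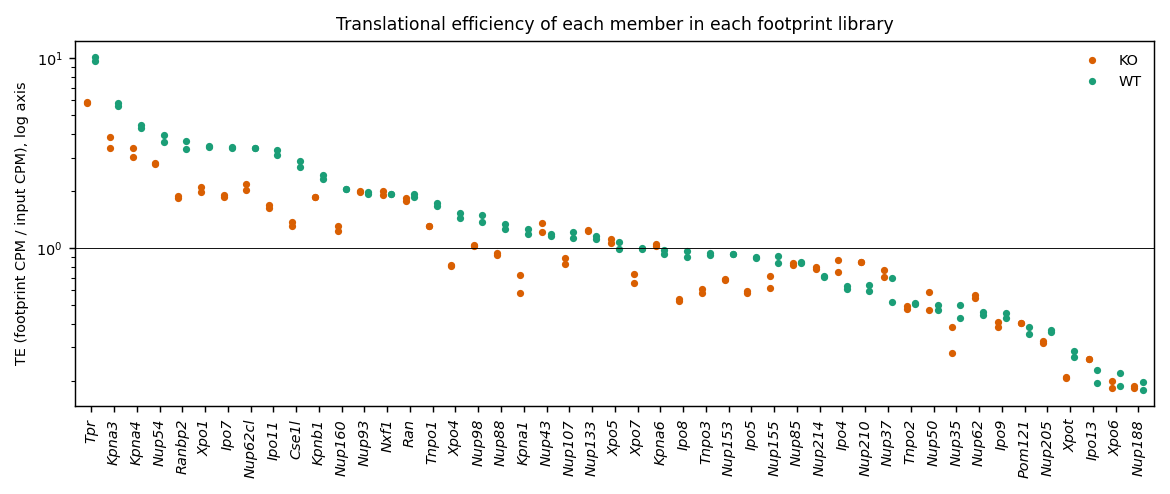
TE of the 47 members in each footprint library on a log axis, KO in orange and WT in green, ordered by the WT mean, with a line at 1. Tpr, Kpna3 and Kpna4 stand highest in both genotypes, and the KO points of most members with a WT level above 1 lie below their WT points.

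Position in the genome moved with these values. Over all genes, the decile with the fewest coding genes within 500 kb had a median log2 input ratio of 0.39 and a median TE change of -0.34, and the decile with the most had an input ratio of -0.19 and a TE change of 0.20. The share of genes with lower TE was 23% in the decile with the fewest and 1.66% in that with the most. The members with lower TE had a median of 9.5 coding neighbours and the other members 18. Of the 26 members with as many neighbours as the median gene or fewer, 15 had lower TE (all such genes, 19.3%), and of the 21 with more, 7 did (5.96%). Members were also long genes, with a median of 47948 bases against 24645 for all genes, and the median input ratio of all genes was -0.11 in the shortest decile and 0.26 in the longest. Set against the median of their own decile, the members' median TE change was -0.21 by neighbours and -0.21 by length. All 22 members with lower TE stayed below 0 under both, but this could not have come out otherwise. The smallest of their falls, -0.351 in Kpnb1, was larger than the lowest decile medians, -0.345 by neighbours and -0.320 by length. The part of gene surroundings in the input ratios was not tested beyond these values.

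**Figure D5:**
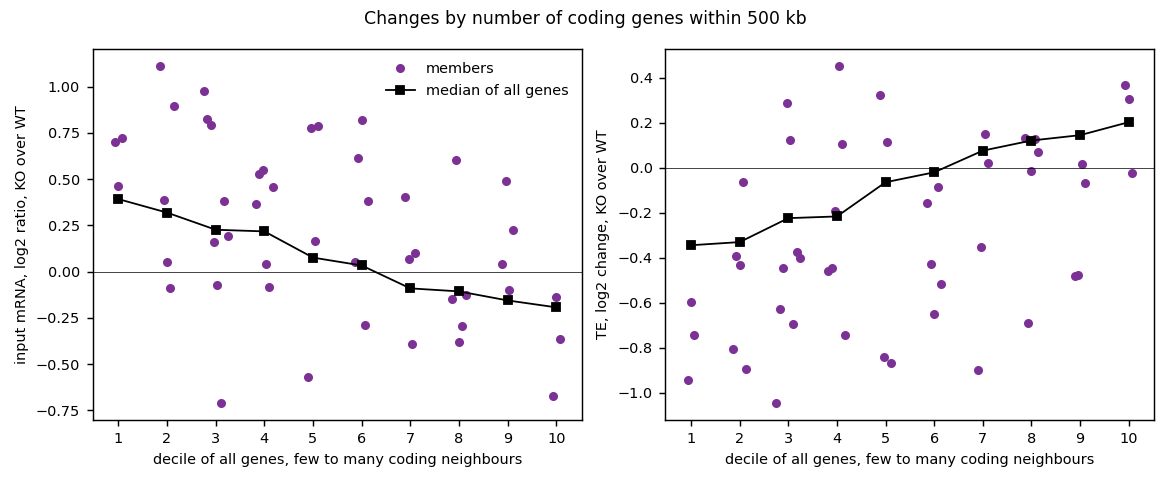
Log2 input ratio and log2 TE change, KO over WT, of the members (points) and the median of all genes (squares), by decile of all genes from few to many coding genes within 500 kb. The medians run from 0.39 to -0.19 for input and from -0.34 to 0.20 for TE, and most members lie below the TE line.

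Promoter windows of RefSeq (GRCm38.p6) were at hand for 38 of the 47 members. Where a gene has several windows, as 8 members do, the first listed was taken. The 150 bases before the start that the window is built on are shown for the members with the largest falls in TE that have a window, Ipo11 and Ranbp2, and for the risers Nup210 and Nup62, so that the largest falls and the rises stand side by side. They lie at chr13:106936959-106937108 on the minus strand, chr10:58446702-58446851 on the plus strand, chr6:91116827-91116976 on the minus strand and chr7:44815938-44816087 on the plus strand. The Nup210 window lies inside the gene span given above, so it belongs to a start within that span and not to its outer end. Capitals mark matches on either strand to the motifs searched.
Ipo11: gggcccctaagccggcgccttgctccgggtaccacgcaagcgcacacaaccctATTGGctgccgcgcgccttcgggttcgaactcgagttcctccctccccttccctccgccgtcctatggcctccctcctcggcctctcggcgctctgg
Ranbp2: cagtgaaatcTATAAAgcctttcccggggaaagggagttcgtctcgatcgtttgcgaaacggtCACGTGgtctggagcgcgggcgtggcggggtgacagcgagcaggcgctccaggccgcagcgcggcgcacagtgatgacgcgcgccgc
Nup210: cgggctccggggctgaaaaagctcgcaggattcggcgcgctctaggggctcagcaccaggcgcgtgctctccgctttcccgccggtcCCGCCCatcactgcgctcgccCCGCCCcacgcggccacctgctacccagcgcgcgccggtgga
Nup62: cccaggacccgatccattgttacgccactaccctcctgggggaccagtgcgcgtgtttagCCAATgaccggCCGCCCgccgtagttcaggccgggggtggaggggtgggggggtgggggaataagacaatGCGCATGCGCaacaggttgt

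The capitals are a CCAAT box in Ipo11, a TATA box and an E-box in Ranbp2, a pair of Sp1 motifs in Nup210, and a CCAAT box, an Sp1 motif and an Nrf1 motif in Nup62. In windows of 250 bases before to 50 after the start, the E-box CACGTG was in 23.7% of the 38 members and 11.2% of the 7391 genes of the table that have a window. CCAAT was in 50% of members and 40.3% of genes, the Sp1 motif GGGCGG in 68.4% of members and 69.1% of genes, the Ets motif CCGGAAG in 15.8% of members and 20.8% of genes, and the Nrf1 motif in 15.8% of members and 12.3% of genes. TATAAA was in 7.89% of members and 6.39% of genes, and the CRE motif TGACGT in 13.2% of members and 13% of genes. The windows had a median GC content of 64.8% for members and 61.7% for all genes. A match describes the letters only, and none of these shares was tested.

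Other genes of the same machinery were taken from 4 lists, with log2 changes given in brackets or as stated. Their counts stand beside 18.3% of all genes higher and 16% lower in footprints, and 4.88% higher and 12.8% lower in TE. Of 9 further nucleoporins, 3 rose and 3 fell in footprints, with Nupl2 at 0.60 and Tmem33 at -0.42, and in TE Rae1 rose while Ahctf1 (-1.0), Seh1l (-0.73), Tmem33 and Ndc1 fell. Of 9 genes of the Ran cycle, 2 fell in footprints, the SUMO protease Senp2 (-0.71, on chromosome 16) and Ranbp3 (-0.26). In TE, Senp2 fell (-0.67) and Rangap1, which triggers GTP hydrolysis by Ran, rose (0.27). Of 20 mRNA export genes, 4 rose and 4 fell in footprints, with Mcm3ap at -0.77 and Nxt2, a cofactor of Nxf1-type receptors, at 0.64, and in TE Thoc1 fell (-0.95) while Ddx39b (0.52) and Poldip3 (0.46) rose. Of 17 genes of the nuclear envelope and lamina, 5 rose and 1 fell in footprints, with Lmna, which encodes lamins A and C, at 0.42. In TE, Lbr (-0.46) and Tmpo (-0.26) fell and Lmnb2 rose (0.44).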

How the data were processed

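Ribosome footprints and input mRNA were measured in mouse embryonic stem cells. Footprints were deposited as raw counts per gene, per the file headers, and the authors also gave them as CPM of the library total before their gene filter. For input the authors deposited CPM alone. TE was deposited as a ratio of footprint to input CPM, with the log2 of the KO over the WT mean ratio and an unadjusted p-value, both the authors'. The submitters' processing notes name Bowtie, without a version, and mm10. How reads were counted and genes filtered is not given in the sources used here. Its 2 further input columns equalled the used ones in all 9093 genes and were left out.

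Titles gave each sample's genotype and kind of library. Footprint counts were tested with edgeR 4.0.16 (quasi-likelihood, TMM, 2 KO against 2 WT), and TE with limma 3.58.1 (trend) on log2(CPM + 1) over 6 libraries, both in R 4.3.3 with Benjamini-Hochberg adjustment over all genes at 0.05. Low-value filters removed 0 genes. TE changes on this scale understate those of low genes, and all residual spread came from footprints. Input ratios of single libraries were not tested. Input totals and counting intervals assume that the lowest input value stands for 1 read. Positions and promoters came from RefSeq (GRCm38.p6), which matched 9057 genes and all 47 members. DESeq2 1.42.0, other scalings, filters and pseudocounts, and leaving out each footprint library were alternatives. The scripts were tested on simulated data.

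Every member could be named. Library values were given for the 6 largest called rises and falls in footprints and in TE, for Ran, Kpnb1, Xpo1, Cse1l and the importin alpha genes, and up to 3 genes were named from each pathway list. The members and lists were chosen with earlier results of these data known.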

Additional observations from a re-analysis of the deposited data

How the results depend on the processing

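Members with higher and lower footprints numbered 12 and 13. They numbered 4 and 7 with DESeq2, and 6 to 10 and 8 to 11 without 1 library. Over all genes, 1668 and 1458 became 771 and 629 with DESeq2, and 1015 to 1480 and 920 to 1253 without 1 library. With at least 100 counts in every library, only 4073 genes were tested, and 1155 were higher and 869 lower. The members' median footprint change was then -0.0093 in place of -0.0426. Relative to the chromosome median the footprint changes of Tnpo3, Tnpo2, Nup93 and Nup133 reversed, to -0.1207, -0.2133, -0.2460 and -0.0982. TE depended most on the input. Members with higher and lower TE numbered 2 and 22, 0 and 0 with an added input spread, 0 and 3 by the authors' deposited p-values after adjustment, and 1 to 3 and 21 to 24 without 1 library. Over all genes, 444 and 1165 became 756 and 883 with median centring, 4 and 0 with the added spread, 36 and 107 by the authors' p-values, and 279 to 811 and 823 to 1589 without 1 library. The members' median TE change was -0.3911, against -0.2990 with median centring, -0.2829 less the chromosome median and -0.3833 to -0.3459 without 1 library. Their median input ratio was 0.1900, against 0.1292 with centring. Less the median of the decile by neighbours or by length, alternatives chosen after seeing the data, the TE medians were -0.2147 and -0.2112 and the input medians 0.1492 and 0.0824. Apart from the arithmetic of centring and subtraction, the causes were not tested. With the replicate block, members numbered 12 and 12 in footprints and 3 and 22 in TE. Ipo5 lost its footprint call under the block (adjusted p = 0.0754) and Ipo4 gained a TE call (adjusted p = 0.0422). Ipo4 also gained one with a pseudocount of 5 CPM, a floor of 20 CPM, median centring and without KO replicate 1, and Xpot with the floor of 20 CPM and without KO replicate 1 or KO replicate 2 alone. Nup62cl gained a TE call with the pseudocount of 5 CPM. Same-numbered libraries did not deviate together (correlation -0.0327), and the labels do not say what a number stands for. The count model on input reads was not run, because input was deposited as CPM. Depth limits the shallowest members, such as Nup35, and 1 input library of each genotype limits every TE value.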
